A study of Mus musculus with 12 samples.

Results

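The 10 genes described here are grouped as inhibitory and costimulatory receptors of T cells, namely Pdcd1, Ctla4, Tigit, Lag3, Btla, Cd160, Cd200, Tnfrsf9, Tnfrsf4 and Icos. Cd200 encodes a ligand and is counted among the receptors by that grouping only. The 10 genes were chosen by gene symbol, with earlier results of these data known. Each of the 10 had a probe well above background on 2 or more of the 12 arrays, so all 10 were tested among the 25738 features of the fit, of which 13882 were named genes. Tigit passed that filter on 4 arrays, 3 of them WT and 1 uMT, Lag3 on the 8 arrays of total cells, and the other 8 genes on all 12 arrays.

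Transcripts of mouse CD8+ T cells were measured on 12 Agilent arrays of 1 colour, and all samples were labelled as female mice of the C57BL/6 strain. Total CD8+ T cells came from AID KO, uMT and wild-type (WT) mice, with 1 array each for AID KO mesenteric lymph node (MLN), uMT MLN, AID KO peripheral lymph node (PLN) and uMT PLN, and 2 arrays each for WT MLN and WT PLN. Naive CD8+ T cells, which have low CD44, came from PLN of AID KO and uMT mice and were split by sorting into Sca1p (taken as Sca-1 positive) and Sca1m (taken as Sca-1 negative) cells, with 1 array per genotype and fraction and no WT array. AID is an enzyme that B cells need for class switching and somatic hypermutation, and uMT mice have no mature B cells, since the exon that anchors the mu heavy chain in the membrane is disrupted. Both are germline changes carried by every cell, so neither is restricted to B cells by its construction. Ages, and whether samples came from separate or pooled mice, are not given in the labels, and by the submitters' own account there are no replicates. A p-value here therefore reflects only the departure of these arrays from an additive fit, which may be technical.

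T cells receive a second set of signals beside the antigen receptor. PD-1 (Pdcd1), CTLA-4 (Ctla4), TIGIT (Tigit), LAG-3 (Lag3), BTLA (Btla) and CD160 (Cd160) restrain the response by recruiting phosphatases or by competing for shared ligands, and several of them are induced by antigen and stay high on exhausted CD8+ T cells. ICOS (Icos), a relative of CD28, and the tumour necrosis factor receptors CD137 (Tnfrsf9) and OX40 (Tnfrsf4) pass on costimulation, and CD200 (Cd200) is a ligand that restrains myeloid cells carrying its receptor.

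Promoter windows from RefSeq (GRCm38.p6, 250 bases before to 50 bases after the annotated start) were matched for 8 of the 10 genes, in 10 windows, and Lag3 and Icos were not matched. The windows of Tigit, Ctla4 and Cd200 are shown because these genes had the smallest adjusted p among the 10 in the comparisons of AID KO with WT cells, uMT with AID KO total cells, and Sca1p with Sca1m cells. Capitals mark the core letters bound by NFAT factors, which carry antigen-receptor signals to the nucleus, searched as GGAAA on both strands. The Tigit window is chr16:43664135-43664434 (minus strand), the Ctla4 window chr1:60908775-60909074 (plus strand) and the Cd200 window chr16:45409004-45409303 (minus strand), each written 5′ to 3′ on its own strand.
Tigit: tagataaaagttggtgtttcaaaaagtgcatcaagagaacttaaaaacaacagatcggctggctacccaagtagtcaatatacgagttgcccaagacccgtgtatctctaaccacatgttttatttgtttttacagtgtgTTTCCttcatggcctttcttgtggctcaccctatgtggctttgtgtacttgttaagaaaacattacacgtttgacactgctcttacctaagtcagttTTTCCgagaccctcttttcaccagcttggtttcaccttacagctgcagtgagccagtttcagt
Ctla4: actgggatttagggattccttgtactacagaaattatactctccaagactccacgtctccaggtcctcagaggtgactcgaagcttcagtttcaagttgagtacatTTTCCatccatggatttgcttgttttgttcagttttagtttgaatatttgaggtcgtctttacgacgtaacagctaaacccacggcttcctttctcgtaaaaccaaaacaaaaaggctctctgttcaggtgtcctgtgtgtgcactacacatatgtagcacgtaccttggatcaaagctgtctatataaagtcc
Cd200: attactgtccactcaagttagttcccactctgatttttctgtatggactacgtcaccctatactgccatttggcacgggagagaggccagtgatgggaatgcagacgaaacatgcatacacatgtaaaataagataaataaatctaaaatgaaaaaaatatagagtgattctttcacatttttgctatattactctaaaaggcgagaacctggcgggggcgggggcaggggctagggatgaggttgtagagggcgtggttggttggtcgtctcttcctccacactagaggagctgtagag
The Tigit window held 2 matches, the Ctla4 window 1, and the letters were not in the Cd200 window. Across the 10 windows, 7 held at least 1 match, against 61.3% of 32851 windows of the same length in all genes. The AP-1 letters TGANTCA were found in 1 of the 10 windows, the second Tnfrsf9 window, against 7.81% of all windows. The interferon-linked letters TTCNNNGAA (GAS) were found in 2, the second windows of Tnfrsf9 and Cd160, against 8.3%. The NR4A letters AAAGGTCA, held by 1.51% of all windows, and a pair of GAAA cores of the interferon-stimulated response element, held by 3.44%, were in none of the 10. These matches describe the letters of the windows and are not evidence of binding.

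Per array, 50.1% to 56.8% of spots were well above background. All 6 markers of CD8 T cells (Cd8a, Cd8b1, Cd3d, Cd3e, Cd3g and Cd247) were well above background on all 12 arrays. Of the 14 B cell markers, 7 had no kept probe, among them Ms4a1. Of the other 7, Cd79b, Cr2, Cd22 and Cd74 were well above background on all 12 arrays, H2-Ab1 on 10, Pax5 on 7 and Cd79a on 2. Ly6a, the Sca-1 gene, matched the sorted fractions, at 3.42 and 3.91 in Sca1p cells and -0.07 and 0.07 in Sca1m cells. Levels here are log2 of the processed intensity relative to the 75th percentile of the array. No probe was named Ighm, the gene altered in uMT mice.

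**Figure D1:**
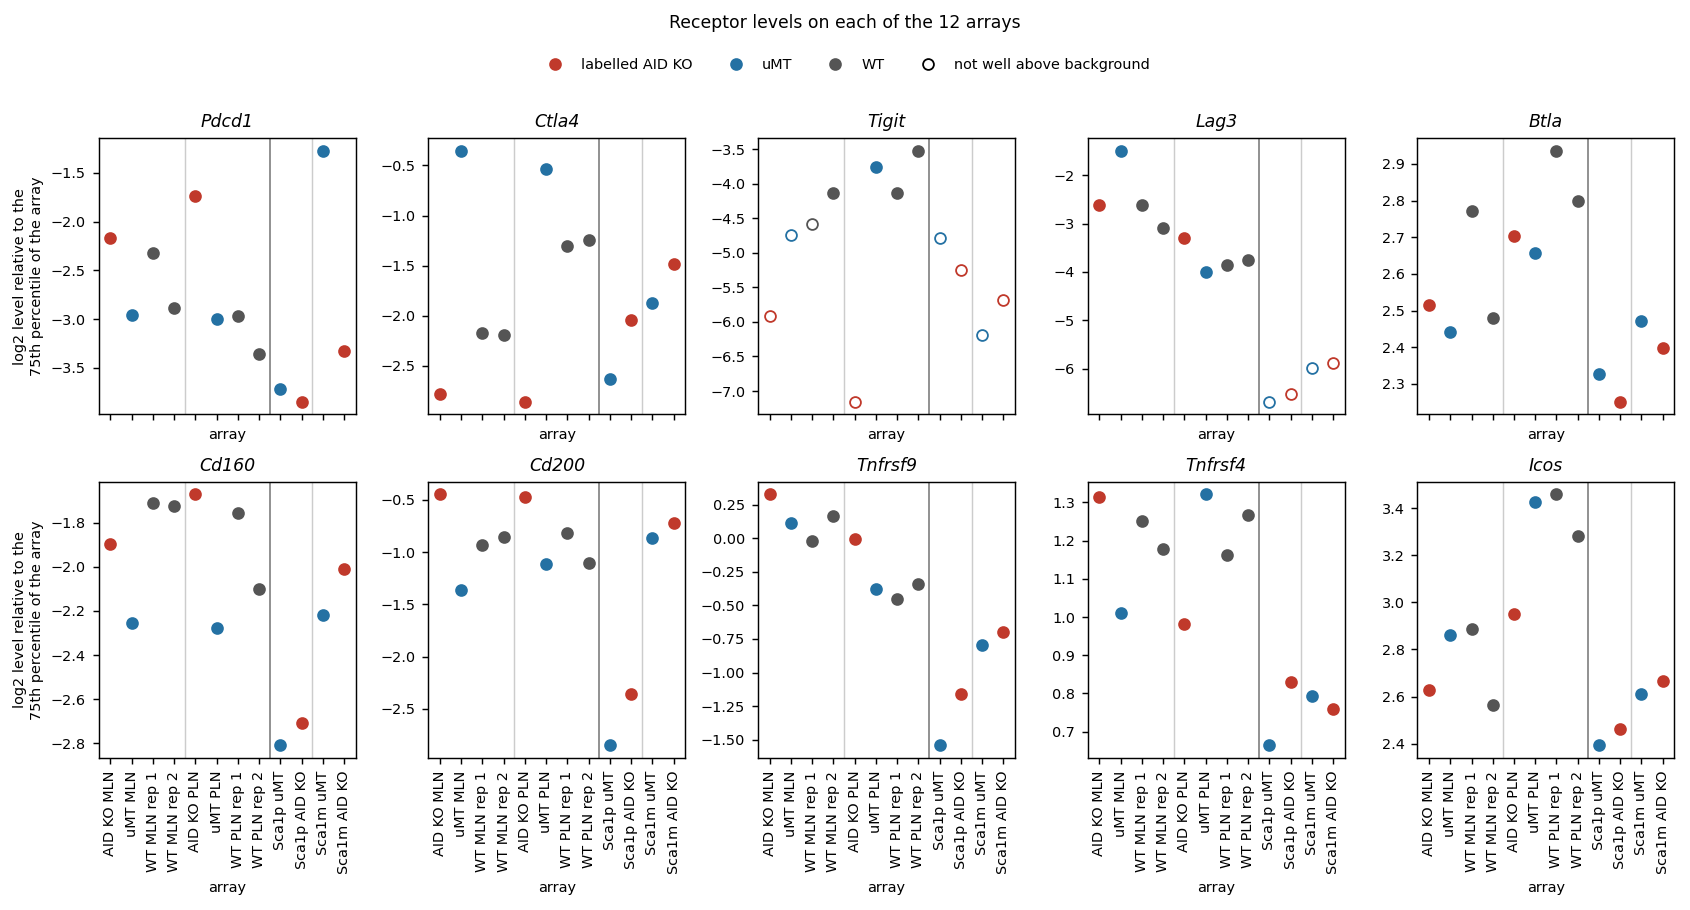
Level of each of the 10 receptor genes on each of the 12 arrays, as log2 relative to the 75th percentile of the array, on separate scales, with 1 point per array. Open points were not well above background: Tigit was in that state on 8 arrays and Lag3 on all 4 naive arrays.

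The spread between arrays of 1 group can be read only from WT cells. Between the 2 WT MLN arrays the 10 genes differed by -0.56 (Pdcd1) to 0.45 (Tigit), and between the 2 WT PLN arrays by -0.40 (Pdcd1) to 0.62 (Tigit). These pairs also stand on different slides. Over the 8 total-cell arrays the range of a gene's level was narrowest for Tnfrsf4 (0.34) and Btla (0.49) and 2.51 for both Lag3 and Ctla4. The measured range of Tigit, 3.64, takes in arrays on which it was not well above background, so it is given no rank. Levels of different genes come from different probes and are not compared with each other.

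In AID KO total CD8+ T cells Tigit lay below WT, and it was the 1 gene of the 10 with an adjusted p under 0.05 (0.878% of all features passed, and 0.657% with a fall). It had entered the fit through WT and uMT arrays alone, the groups where it is high, so the count of 1 supports nothing about the 10 genes. Tigit was -5.92 in AID KO MLN and -7.16 in AID KO PLN cells, against -4.59 and -4.14 in WT MLN cells and -4.14 and -3.52 in WT PLN cells. Neither AID KO array was well above background, whereas 3 of the 4 WT arrays were, all but the first WT MLN array, and the groups did not overlap. The lowest signal called well above background ranged from -5.34 to -4.48 over the arrays, and both AID KO values lay below that range. With that lowest signal on each AID KO array in place of the measured value, Tigit was 1.85-fold lower than in WT cells. The WT value was the mean of all 4 WT arrays, the undetected one included at its measured value. This fold is not a strict bound, since Tigit was also not called well above background at -4.59 on the first WT MLN array. The fitted log2 difference was -2.44 ± 0.29 (standard error of the fit, adjusted p = 0.0313, limma). Fewer cells carrying the transcript and less transcript per cell cannot be told apart in these bulk samples. The call was lost on leaving out any 1 of the 8 total-cell arrays, with adjusted p of 0.0678 to 0.349 and log2 differences of -3.06 to -1.82. The call was also lost with no filter on dim probes (adjusted p = 0.0890) and with a normal-exponential background correction, where the difference was -0.51 (adjusted p = 0.0606). That difference was smaller than the 1.85-fold above, which therefore holds only for the processed signal.

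Ctla4 and Pdcd1 had the next largest differences between AID KO and WT cells, on opposite sides, and neither passed the test. Ctla4 was -2.78 in AID KO MLN and -2.86 in AID KO PLN cells, against -2.17 and -2.19 in WT MLN cells and -1.30 and -1.25 in WT PLN cells. Both AID KO arrays lay below all 4 WT arrays, and the log2 difference was -1.10 ± 0.27 (adjusted p = 0.151), or -1.58 to -0.61 on leaving out 1 array. Pdcd1 was -2.17 in AID KO MLN and -1.74 in AID KO PLN cells, against -2.33 and -2.89 in WT MLN cells and -2.96 and -3.36 in WT PLN cells. Both AID KO arrays lay above all 4 WT arrays, by 0.93 ± 0.40 on average (adjusted p = 0.376). Cd200 was -0.45 and -0.47 in AID KO MLN and PLN cells, above the range of -1.11 to -0.82 in the 4 WT arrays, with a difference of 0.47 ± 0.14 (adjusted p = 0.214). For these 4 genes, Tigit included, the AID KO and WT arrays did not overlap, and 17.6% of all features shared that property. The other 6 genes overlapped between the groups, with log2 differences of -0.26 (Icos) to 0.37 (Lag3) and adjusted p of 0.264 (Tnfrsf9) to 0.936 (Cd160). Over the 10 genes, 5 differences were positive and 5 negative and the median was -0.01, against 0.01 over all features.

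In uMT total CD8+ T cells none of the 10 genes passed the test against WT (0.035% of all features passed), and 2 had an unadjusted p under 0.05, against 17.6% of all features. Ctla4 had the smallest adjusted p of the 10, with values on the other side of WT from those in AID KO cells. It was -0.35 in uMT MLN and -0.54 in uMT PLN cells, above all 4 WT arrays given above, and the log2 difference was 1.28 ± 0.27 (adjusted p = 0.141), or 0.73 to 1.84 on leaving out 1 array. Cd160, an inhibitory receptor that shares the ligand HVEM with BTLA, was -2.26 in uMT MLN and -2.28 in uMT PLN cells, against -1.71 and -1.72 in WT MLN cells and -1.75 and -2.10 in WT PLN cells. The uMT arrays lay below all WT arrays, by -0.45 ± 0.13 (adjusted p = 0.193). Cd200 was -1.37 and -1.11 in uMT MLN and PLN cells, the second of these just below the lowest WT array, with a difference of -0.31 ± 0.14 (adjusted p = 0.312), or -0.52 to -0.10 on leaving out 1 array. These 3 genes did not overlap between uMT and WT arrays, a property of 18.9% of all features. The fitted difference of Lag3, 0.58 ± 0.27, rested on the uMT MLN array: without it the difference was -0.11.

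Set directly against each other, uMT and AID KO total cells differed most in Ctla4 and Tigit, without a call (0.307% of all features passed). Ctla4 averaged -0.45 ± 0.13 in uMT cells and -2.82 ± 0.06 in AID KO cells (SD, n = 2 arrays each, 1 per node), a log2 difference of 2.38 ± 0.32 with an adjusted p of 0.0607. It passed the test with that background correction (1.70, adjusted p = 0.0115), in the authors' normalized table (2.41, adjusted p = 0.0322) and over probes well above background on 6 or more arrays (2.38, adjusted p = 0.0337). It did not pass with no filter on dim probes (adjusted p = 0.152), with the knockout and WT arrays of a node and slide as a block (2.34, adjusted p = 0.637), or on leaving out any 1 array (1.82 to 2.93, adjusted p up to 0.586). Tigit was -4.74, not well above background, in uMT MLN cells and -3.76 in uMT PLN cells, against -5.92 and -7.16 in AID KO cells (adjusted p = 0.0746). No fold from the lowest called signal is given for this pair, since 1 of the 2 uMT arrays was also not well above background. Cd200 differed by -0.78 ± 0.16 (adjusted p = 0.160), Cd160 by -0.48 ± 0.15 (adjusted p = 0.280) and Pdcd1 by -1.03 ± 0.47 (adjusted p = 0.452), the last by -1.53 to -0.52 on leaving out 1 array. In these 5 genes the uMT and AID KO arrays did not overlap, with 2 higher and 3 lower in uMT cells, against 28.8% of all features. The 3 genotype comparisons share arrays, so their values are not independent of each other.

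**Figure D2:**
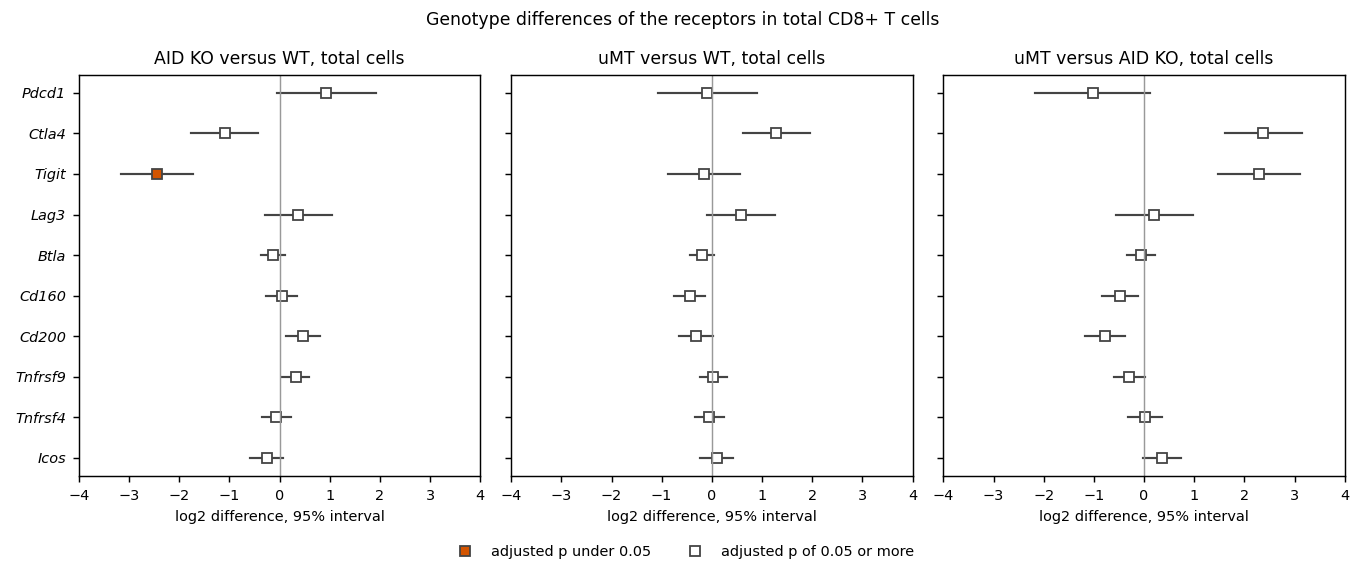
Fitted log2 differences of the 10 receptor genes in total CD8+ T cells for AID KO against WT, uMT against WT and uMT against AID KO, with bars for the 95% interval of the fit. Only Tigit in AID KO against WT cells has an adjusted p under 0.05, and the Ctla4 differences lie on opposite sides of 0 in the 2 comparisons with WT.

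Genes that act with these receptors were followed through lists. The lists were written with earlier results of these data known, so their counts beside the share of all features are descriptive only. In AID KO against WT total cells, 2 of the 14 other costimulatory receptors with a kept probe rose and none fell, against 0.221% of all features that rose. Cd27, a receptor of the tumour necrosis factor family, rose by 0.88 ± 0.10 (adjusted p = 0.0302), with 2.84 and 3.05 in AID KO arrays against an average of 2.06 ± 0.16 in WT arrays (SD, n = 4). Klrk1 (NKG2D, an activating receptor) had a log2 difference of 2.09 ± 0.26 (adjusted p = 0.0334), with 0.12 and -0.04 in AID KO arrays against an average of -2.05 ± 0.20 in WT arrays (SD, n = 4). The list's median difference was 0.11, against 0.01 over all features. None of the 13 other inhibitory receptors passed. The smallest adjusted p among them, 0.0735, belonged to Klra7 (-1.25 ± 0.22) and Klrc1, which was well above background on 1 AID KO array and on none of the 4 WT arrays. None of the 10 ligands and partners or of the 15 signalling partners passed, and the values with the smallest adjusted p in these lists were -0.45 ± 0.16 for Cd200r1 (adjusted p = 0.300), the receptor of CD200, and 0.24 ± 0.10 for Sh2d1a (adjusted p = 0.382), the adaptor SAP.

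Of 19 transcription factors of activated and exhausted T cells, 4 fell in AID KO cells against WT and none rose, against 0.657% of all features that fell. The 3 with the smallest p were Bhlhe40 at -1.55 ± 0.11 (adjusted p = 0.00838), a basic helix-loop-helix repressor, and the antigen-receptor induced nuclear receptors Nr4a2 at -2.16 ± 0.20 (adjusted p = 0.0183) and Nr4a1 at -1.66 ± 0.16 (adjusted p = 0.0194). Of 11 activation markers, Cd69, an early activation antigen, had a log2 difference of -0.92 ± 0.09 (adjusted p = 0.0184) and Ifng, the cytokine interferon gamma, one of -1.47 ± 0.16 (adjusted p = 0.0267), both falls, and none rose. With the knockout and WT arrays of a node and slide as a block, 0 of these 8 list genes passed (adjusted p of 0.192 to 0.293), and leaving out 1 total-cell array kept 0 to 5 of them. The medians of these lists were -0.10 and -0.17, against 0.01 over all features. In uMT against WT cells none of the genes in any of the 6 lists passed. In uMT against AID KO total cells Bhlhe40 (1.75 ± 0.13, adjusted p = 0.0146) and Cd69 (1.39 ± 0.10, adjusted p = 0.0145) rose (0.307% of all features passed in either direction), and no gene of the other 4 lists passed. Neither passed with that block (adjusted p = 0.415 for both), and leaving out 1 total-cell array kept 0 to 1.

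Markers of other cells were summed beside these values. The summed linear level of the 7 B cell markers with a kept probe was 7.59 and 7.79 in the AID KO total arrays, 5.53 and 6.51 in the uMT arrays, and 4.92 to 6.03 in the WT arrays. All 7 had positive fitted differences in AID KO against WT cells (median 0.40), but only 1 in uMT against WT cells (median -0.27). The uMT sums thus do not describe that list as a whole. The 8 regulatory T cell markers, a cell type that carries TIGIT, CTLA-4, ICOS and OX40, summed to 7.19 and 8.31 in AID KO arrays, 6.41 and 6.93 in uMT arrays and 6.23 to 6.75 in WT arrays. Foxp3, the factor that defines that cell type, was -3.29 and -3.91 in AID KO MLN and PLN cells, -3.18 and -3.01 in uMT MLN and PLN cells, and -4.12 to -2.87 in WT cells, so its ranges overlapped. The 8 markers of NK and gamma delta T cells with a kept probe summed to 2.47 and 2.56 in AID KO arrays, 3.90 and 7.94 in uMT arrays and 3.27 to 5.30 in WT arrays, with Ncr1 and Trdc not kept. Of these 8, 6 had positive fitted differences in AID KO against WT cells (median 0.21), and 6 in uMT against WT cells (median 0.39). The lower AID KO sums thus do not describe that list as a whole. The 4 markers of macrophages and monocytes with a kept probe, among 7 listed, summed to 1.83 and 2.90 in AID KO arrays and 2.23 and 2.91 in uMT arrays, below the 2.996 to 3.79 in WT arrays, with Adgre1, Lyz2 and C1qa not kept. Tigit, Ctla4 and Cd160 can each be carried by regulatory T cells or by NK and gamma delta T cells. None of these marker genes passed the test between genotypes, and their part in the receptor values was not tested.

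Mesenteric nodes drain the gut, and peripheral nodes drain the skin and limbs. Between MLN and PLN total cells, none of the 10 genes passed the test (0.109% of all features did), and Lag3, Icos and Tnfrsf9 had the smallest adjusted p. Lag3, whose product binds MHC class II, was -2.61 in AID KO, -1.50 in uMT and -2.62 and -3.10 in WT MLN cells, against -3.31 in AID KO, -4.01 in uMT and -3.85 and -3.76 in WT PLN cells. All 4 MLN arrays lay above all 4 PLN arrays, a log2 difference of 1.28 ± 0.22 (adjusted p = 0.180). The step between nodes was 2.51 in uMT, 0.70 in AID KO and 1.23 and 0.66 in the WT pairs, and without the uMT MLN array the fitted difference was 0.93. Each WT pair shares a slide, but the MLN and PLN arrays of a knockout do not, so the knockout steps mix node with slide. The dimmer second Lag3 probe was well above background on 1 array only.

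Icos was 2.63 in AID KO, 2.86 in uMT and 2.89 and 2.56 in WT MLN cells, against 2.95 in AID KO, 3.43 in uMT and 3.46 and 3.28 in WT PLN cells. All 4 MLN arrays lay below all PLN arrays, by -0.54 ± 0.11 (adjusted p = 0.221). Lag3 and Icos were the 2 genes of the 10 without overlap between nodes, against 2.2% of all features. Tnfrsf9 was 0.33, 0.12, -0.02 and 0.17 in AID KO, uMT and the 2 WT MLN arrays, against -0.01, -0.38, -0.45 and -0.34 in the matching PLN arrays. Every genotype's MLN array was above its PLN array of the same slide or genotype, while the groups overlapped through the AID KO PLN array, and the difference was 0.44 ± 0.09 (adjusted p = 0.223). Its second probe differed by 0.67 in the same direction. Btla, at 2.44 to 2.77 in MLN cells and 2.66 to 2.94 in PLN cells, differed by -0.22 ± 0.08 (adjusted p = 0.508), and by -0.09 on its second probe.

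**Figure D3:**
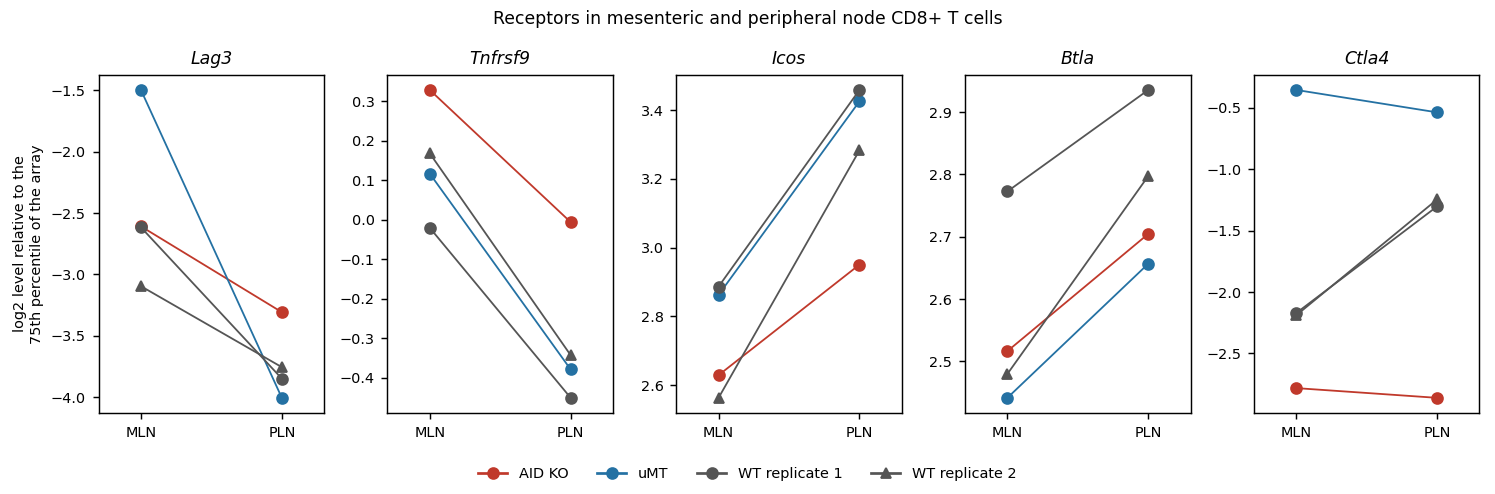
Levels of Lag3, Tnfrsf9, Icos, Btla and Ctla4 in MLN and PLN total CD8+ T cells, with lines joining arrays of 1 genotype (WT arrays of 1 slide). Lag3 and Tnfrsf9 are higher in the MLN array of every line and Icos and Btla lower, while Ctla4 is lower in MLN only in the WT lines.

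The step of Ctla4 between nodes had other values in the knockouts than in WT cells, without a call in the test of that difference. Its level in MLN minus that in PLN was -0.87 and -0.94 in the WT pairs, steps reached by 5.13% and 3.19% of all features, but 0.08 in AID KO and 0.18 in uMT cells. Each WT pair shares a slide, whereas the MLN and PLN arrays of a knockout stand on different slides, so in the knockouts node and slide cannot be told apart from these steps. Against the WT array of the same node and slide, Ctla4 was lower by 0.59 on the log2 scale in AID KO MLN and by 1.56 in AID KO PLN cells, and higher by 1.82 in uMT MLN and by 0.71 in uMT PLN cells. The test of the knockouts' difference from WT in MLN minus that in PLN gave 1.04 ± 0.15 for Ctla4 (adjusted p = 0.446) and no call for any of the 10 genes. In that test 0% of all features passed (0 calls by limma, with 1086 features at an unadjusted p under 0.05), and the other 9 genes had adjusted p of 0.999. With the authors' normalized table in place of the scanner values, 17 of all features passed, and with that background correction 26 did, but none of the 10 genes. None of the genes in the 6 lists passed between nodes or in the test of the node by genotype. Tbx21, which encodes the effector factor T-bet, had the smallest adjusted p of the transcription factors between nodes, at 0.46 ± 0.06 (adjusted p = 0.103). The summed regulatory T cell markers were 6.23 to 7.19 in MLN arrays and 6.49 to 8.31 in PLN arrays, and the NK and gamma delta markers 2.47 to 3.90 and 2.56 to 7.94. Their part in the node values was not tested.

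In naive cells the receptors were compared between Sca1p and Sca1m fractions, which also differ in Ly6a by the sort. None of the 10 genes passed the test (0.0155% of all features did), but 8 lay lower in both Sca1p arrays than in both Sca1m arrays and 1 higher, a separation shown by 34.5% of all features and by 16.9% in the lower direction. The median over the 10 genes was -0.62, against 0.00 over all features. Lag3, among the 8 lower, and Tigit, the 1 higher, enter these figures without being well above background on any naive array. Cd200 was -2.36 in AID KO and -2.85 in uMT Sca1p cells, against -0.72 in AID KO and -0.87 in uMT Sca1m cells, and the steps of -1.64 and -1.98 were reached by 2.56% and 0.673% of all features. The fitted difference was -1.81 ± 0.16 (adjusted p = 0.0715). A second Cd200 probe differed by 0.09, but it was well above background on 0 arrays, so the difference rests on 1 probe. Cd200 passed with that background correction (-1.16, adjusted p = 0.0171), in the authors' normalized table (-1.81, adjusted p = 0.0305) and over probes well above background on 6 or more arrays (-1.81, adjusted p = 0.0354). It did not pass with no filter on dim probes (adjusted p = 0.191), with naive arrays alone (adjusted p = 1.00) or on leaving out any 1 array, which gave -1.98 to -1.64.

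Cd160 and Tnfrsf9 lay on the same side as Cd200 with smaller steps, and neither passed the test. Cd160 was -2.71 and -2.81 in AID KO and uMT Sca1p cells, against -2.01 and -2.22 in AID KO and uMT Sca1m cells (-0.64 ± 0.14, adjusted p = 0.306). Tnfrsf9 was -1.16 and -1.54 in AID KO and uMT Sca1p cells, against -0.70 and -0.79 in Sca1m cells of the same genotypes (-0.60 ± 0.13, adjusted p = 0.281), and its second probe differed by -0.29. Ctla4 was -2.04 and -2.63 in AID KO and uMT Sca1p cells and -1.48 and -1.88 in Sca1m cells (-0.66 ± 0.32, adjusted p = 0.663). Icos and Btla differed by -0.21 ± 0.15 and -0.15 ± 0.11, with adjusted p of 0.796 and 0.815. Tnfrsf4 was the gene that overlapped, at 0.83 and 0.66 in AID KO and uMT Sca1p cells against 0.76 and 0.79 in Sca1m cells.

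Pdcd1 depended on 1 array. It was -3.85 in AID KO and -3.72 in uMT Sca1p cells, against -3.33 in AID KO and -1.28 in uMT Sca1m cells, so that the uMT Sca1m array held the highest Pdcd1 level of the naive arrays. The fitted difference of -1.48 ± 0.47 (adjusted p = 0.485) was made of a step of -0.52 in AID KO and one of -2.44 in uMT cells. The test of the difference between these steps gave -1.93 ± 0.54 with an adjusted p of 0.297, and the next smallest adjusted p of the 10 was 0.654, for Tigit. Tigit and Lag3 were not well above background on any naive array, so no fold is given for either. The 2 genes are among the 9 without overlap only by values not well above background.

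**Figure D4:**
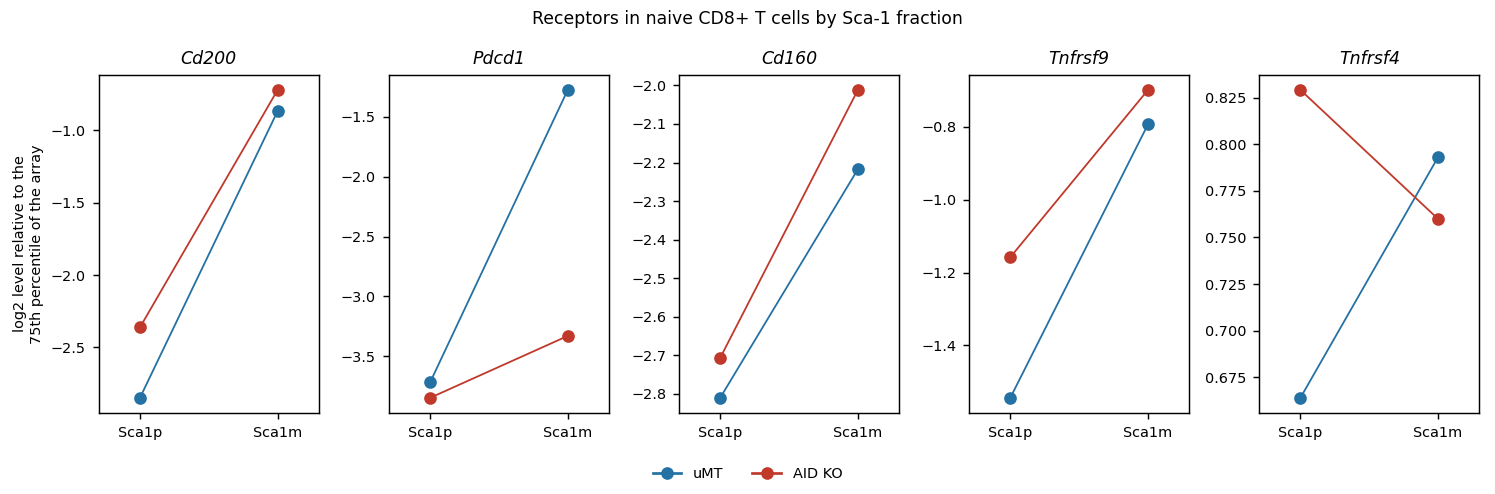
Levels of Cd200, Pdcd1, Cd160, Tnfrsf9 and Tnfrsf4 in Sca1p and Sca1m naive CD8+ T cells of uMT and AID KO mice, with lines joining the fractions of 1 genotype. The lines of Cd200, Cd160 and Tnfrsf9 run alike in both genotypes, the Pdcd1 step is larger in uMT cells, and the Tnfrsf4 lines cross.

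None of the genes in the 6 lists passed between Sca1p and Sca1m cells. The values with the smallest adjusted p were 0.57 ± 0.09 for Tbx21 (adjusted p = 0.175), -1.31 ± 0.23 for Ikzf2 (adjusted p = 0.214), which encodes the factor Helios, and 0.82 ± 0.14 for Eomes (adjusted p = 0.217), a T-box factor, all on the list of transcription factors. Ikzf2 also stands on the list of regulatory T cell markers, and those 8 markers summed to 4.87 and 5.81 in Sca1p cells against 6.49 and 7.03 in Sca1m cells. Foxp3 was -3.21 and -3.03 in AID KO and uMT Sca1p cells and -3.33 and -3.25 in Sca1m cells. The 4 CD4 T cell markers with a kept probe summed to 5.09 and 5.27 in Sca1p cells and to 4.16 and 4.31 in Sca1m cells. The 7 B cell markers summed to 7.91 in AID KO and 4.88 in uMT Sca1p cells against 5.90 and 5.41 in Sca1m cells. Their part in the values of Cd200 and the other receptors was not tested.

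Between uMT and AID KO naive cells none of the 10 genes passed (0.354% of all features did), none had an unadjusted p under 0.05 against 8.82% of all features, and all 10 overlapped between the genotypes, against 30.5% of features that did not. The largest fitted difference, 1.09 ± 0.47 for Pdcd1 (adjusted p = 0.597), came from the uMT Sca1m array. Ctla4, whose total-cell levels were far apart between these genotypes, was -2.63 and -1.88 in uMT Sca1p and Sca1m cells against -2.04 and -1.48 in AID KO Sca1p and Sca1m cells, a difference of -0.49 ± 0.32 (adjusted p = 0.821). The test of the difference between genotypes in total cells minus that in naive cells gave 2.87 ± 0.45 for Ctla4 (adjusted p = 0.0994), and none of the 10 genes passed it (0.198% of all features did). The total cells came from both nodes and the naive cells from PLN alone, so the 2 sets differ in node as well. Of the lists, 1 costimulatory receptor passed, Klrk1 (adjusted p = 0.00578), lower in uMT than in AID KO naive cells, and no gene of the other 5 lists passed. Klrk1 was not well above background on either uMT naive array. With the lowest called signal in place of its value there, it was 8.55-fold lower than in AID KO naive cells. As for Tigit, this fold is not a strict bound and concerns the processed signal only. Klrk1 did not pass with normal-exponential correction (adjusted p = 0.0614) or with naive arrays alone (adjusted p = 0.279).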

How the data were processed

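Expression was measured in 12 samples of mouse CD8+ T cells, each on 1 array with Cy3-labelled RNA. Per the file headers, the deposited scanner files hold spot intensity from Agilent Feature Extraction, version 11.0.1.1 per the submitters' processing notes, with background subtracted and no scaling between arrays. Other values in the deposited files are flags of 0 or 1 for spots well above background, saturated or outlying. The authors' deposited series matrix holds log2 values whose 4 columns of each of the 3 slides share their sorted values, so it was used as an alternative only. Its medians, 9.47, 8.59 and 8.99, differ by slide, its values tracked the scanner values (Pearson correlation 1.00 for every array), and Tigit, Lag3 and Cd160 have no complete row there.

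Log2 processed intensities were shifted to the 75th percentile of each array, outlier spots (61 to 342 per array) were left out, and 0 spots were saturated. Probes well above background on at least 2 arrays were kept and named by transcript accession through the RefSeq gene table (GRCm38.p6). The 56605 probes comprised 32994 with 1 symbol, 0 with several and 23611 unnamed. The array's own coordinates belong to another assembly and are not given. The brightest kept probe stood for a gene. The number of arrays limits the precision.

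The test was limma 3.58.1 (R 4.3.3) in a fit of all 12 arrays, whose total-cell terms were node, slide, AID KO and uMT and whose naive-cell terms were uMT, Sca1p and a separate intercept. It left 4 residual degrees of freedom, or 3 with the node by genotype term. P-values are two-sided and were adjusted by Benjamini-Hochberg over every feature (threshold 0.05), and the script was tested on simulated data. A value after ± is the standard error from limma unless called SD. Naive arrays stand alone on their slide, so their levels were not compared with those of total cells. The level of the gene targeted in AID KO mice is not reported here, so directions belong to arrays as labelled. The labels name the WT control only for PLN arrays, and for MLN the WT array sharing the slide was used. The tests of the Sca-1 difference between genotypes and of the genotype difference between total and naive cells were added after the data were seen. The genes, lists and rule for naming (the 10 genes, and up to 3 genes of a list that passed or 2 by lowest p) were chosen with earlier results of these data known. Alternatives were a normal-exponential background correction on the median signal (offset 50), the series matrix, 2 other filters, the mean of probes, quantile normalization, no slide term, a replicate block, total or naive arrays alone, and each array left out.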

Additional observations from a re-analysis of the deposited data

How the results depend on the processing

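The replicate numbers of the WT arrays follow accession order and pair nothing, so the replicate block was each knockout array with the WT array of its node and slide. Tigit in AID KO against WT was the 1 call among the 10 genes, and that count became 0 in 6 settings. Tigit's log2 difference was -0.51 (adjusted p = 0.0606) with normal-exponential correction, -2.44 with no dim filter (adjusted p = 0.0890) and with no slide term (adjusted p = 0.118), and -2.40 (adjusted p = 0.280) with the replicate block. The series matrix and the filter at 6 arrays, also among those settings, hold no value for Tigit, so its call could not appear there. The matrix holds none for Lag3 or Cd160 either. Leaving out 1 array gave 0 to 1 calls. In uMT against AID KO total cells and in Sca1p against Sca1m cells the count was 0, but 1 (Ctla4 and Cd200) with normal-exponential correction, the series matrix and the filter at 6 arrays. The cause was not tested. In the other 4 comparisons it stayed 0 in each alternative run. These direction changes concern differences that passed no test. With normal-exponential correction, Tigit in uMT against WT became 0.019, Tnfrsf4 in the test of node by genotype -0.14 and Icos in uMT against AID KO naive cells 0.10. Pdcd1 in uMT against WT became 0.021 in the series matrix and 0.013 with quantile normalization, which also gave 0.066 for Tigit in uMT against AID KO naive cells. Tnfrsf9 in the test of node by genotype became 0.010 with the mean of probes. The replicate block gave Cd160 -0.045 in AID KO against WT, and Lag3 -0.080 and Tnfrsf4 -0.071 in uMT against AID KO, and it ended the call of Tigit and the 10 calls of list genes in the genotype comparisons of total cells. Leaving out 1 array at a time, the ranges that cross 0 were, in AID KO against WT, Cd160 (-0.089 to 0.17), Tnfrsf4 (-0.23 to 0.093) and Icos (-0.55 to 0.029). In uMT against WT they were Pdcd1 (-0.59 to 0.41), Tnfrsf9 (-0.056 to 0.12), Tnfrsf4 (-0.20 to 0.098) and Lag3 (-0.11 to 1.26), and in uMT against AID KO total cells Tnfrsf4 (-0.14 to 0.18), Lag3 (-0.48 to 0.89) and Btla (-0.20 to 0.072). In MLN against PLN they were Cd200 (-0.12 to 0.083), Tnfrsf4 (-0.075 to 0.079) and Cd160 (-0.032 to 0.15). In the test of node by genotype they were Tnfrsf4 (-0.29 to 0.32), Btla (-0.19 to 0.27), Tnfrsf9 (-0.28 to 0.17), Icos (-0.17 to 0.57), Lag3 (-0.054 to 1.37) and Cd200 (-0.43 to 0.062). In naive cells they were Tnfrsf4 in Sca1p against Sca1m (-0.13 to 0.069) and, in uMT against AID KO, Tnfrsf4 (-0.17 to 0.033) and Tigit (-0.51 to 0.47). Where an arm is left with 1 array, it is assumed to vary like the other groups.

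Counts over all features moved more. AID KO against WT had 226 calls, 57 of them higher, and 580 (260 higher) in the series matrix, 461 at 6 arrays, 362 (125 higher) with normal-exponential correction, 86 with no slide term, 50 with no dim filter and 1 with the replicate block, and 1 to 165 without 1 array. The 9 calls of uMT against WT (4 higher) became 72 (51 higher), 67, 53 (30 higher), 2, 0 and 0 in the same order, 18 with quantile normalization and 0 to 9 without 1 array. The 79 of uMT against AID KO total cells became 153, 162, 166, 29, 18 and 1, 38 with total arrays alone, and 1 to 38 without 1 array. The 28 of MLN against PLN became 61, 57, 60, 22 and 16, and 2 to 24 without 1 array. The 0 of node by genotype became 17, 9 and 26. The 4 of Sca1p against Sca1m became 13, 13, 11, 2 and 0, 0 with naive arrays alone, and 0 to 175 without 1 array. The 91 of uMT against AID KO naive cells (43 higher) became 17 (11 higher), 38, 29, 56 and 62, 0 with naive arrays alone, and 25 to 205 without 1 array. For Tigit, and for Lag3 in naive cells, signal near background limits what can be measured.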
